A study of Mus musculus with 8 samples.

Results

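Chemokine and chemokine receptor genes were described in mouse liver. They were taken from the deposited table by symbol: every numbered Ccl, Cxcl, Ccr, Cxcr or Ackr gene with any letter suffix, together with Ccrl2, Cx3cl1, Cx3cr1 and Xcr1. Ccl5 was left out of the set. The rule goes by names, though the set was proposed with earlier results of these data known, and it found 52 genes among 24674 table lines with a symbol: 30 ligands, 17 conventional receptors that signal through G proteins and 5 atypical receptors. Of these, 31 reached 10 normalized reads in 4 or more libraries out of 8 and were tested among 14390 genes that did so. The tested members were 15 ligands, 11 conventional receptors and all 5 atypical receptors.

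The data are liver RNA sequencing libraries, 1 from each of 8 females in 2 groups of 4. The F2_outcross mice were wild type in genotype but had a Khdc3-null grandmother on the mother's side. The WT mice were wild type with wild-type ancestors only. Both groups were thus labelled wild type themselves, and no treatment is named. The labels state no age, strain, litter or dam. The p-values set the group difference against the spread among animals within groups, and they take the animals as independent. Shared litters or dams could make the p-values too small. Khdc3, a gene of the oocyte, had 0 reads in all 4 F2_outcross libraries; among WT libraries replicate 1 had 1 read and the others had 0, all under the floor of 3 reads. The 8 libraries held 28028650 to 35843972 reads. The labels call the cells hepatocytes; hepatocyte markers summed to 3042796 to 3797909 normalized reads in F2_outcross and 2905644 to 4221773 in WT, but markers of Kupffer cells, endothelium, stellate cells, T cells and B cells were also present, so the RNA is treated here as that of whole liver.

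Chemokines are small secreted proteins that guide leukocytes. Those of the CC and CXC families differ in the spacing of their first cysteines, and they are held on heparan sulfate along vessel walls. Their receptors pass the signal to inhibitory G proteins and then to Rac and integrins, so that the cell crawls and adheres. Atypical receptors bind chemokines without that signal and clear or transport them. In liver, sinusoidal endothelium, Kupffer cells, stellate cells and hepatocytes are known sources of chemokines, while most conventional receptors are carried by lymphocytes and myeloid cells that line the sinusoids.

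Promoter sequences are shown for the pair of receptors that passed the test, Cxcr3 and Cxcr6, and for Cxcl9 and Cxcl10. Cxcl9 and Cxcl10 are neighbouring genes for ligands of CXCR3. Neither ligand gene passed, and their fold changes were not tested against each other. The sequences are from RefSeq (build GRCm38.p6), run 5′ to 3′ on the gene's strand, and stop before the first base that GENCODE M21 places in the gene. Capitals mark matches to 5 short motifs searched on both strands over 250 bases before the RefSeq start: a T-box motif (GGTGTGA), a GAS motif (TTCNNNGAA), an interferon-stimulated response element (GAAA, any 2 bases, GAAA), an NF-kB motif (GGGA, any 2 bases, TTCC) and a RUNX motif (TGTGGT).
Cxcr3, chrX:101734270-101734397, minus strand: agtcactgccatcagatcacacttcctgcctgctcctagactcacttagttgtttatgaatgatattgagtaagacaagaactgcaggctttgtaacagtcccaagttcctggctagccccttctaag
Cxcr6, chr9:123806227-123806474, plus strand: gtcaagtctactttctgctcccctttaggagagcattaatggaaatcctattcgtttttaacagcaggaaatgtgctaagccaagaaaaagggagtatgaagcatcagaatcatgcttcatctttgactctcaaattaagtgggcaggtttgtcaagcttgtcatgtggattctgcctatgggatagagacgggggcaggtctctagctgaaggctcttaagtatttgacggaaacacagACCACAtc
Cxcl9, chr5:92328080-92328329, minus strand: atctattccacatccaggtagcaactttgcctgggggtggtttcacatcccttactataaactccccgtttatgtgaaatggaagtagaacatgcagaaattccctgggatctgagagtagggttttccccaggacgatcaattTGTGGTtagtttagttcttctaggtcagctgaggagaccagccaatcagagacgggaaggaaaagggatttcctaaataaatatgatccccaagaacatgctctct
Cxcl10, chr5:92348890-92349139, minus strand: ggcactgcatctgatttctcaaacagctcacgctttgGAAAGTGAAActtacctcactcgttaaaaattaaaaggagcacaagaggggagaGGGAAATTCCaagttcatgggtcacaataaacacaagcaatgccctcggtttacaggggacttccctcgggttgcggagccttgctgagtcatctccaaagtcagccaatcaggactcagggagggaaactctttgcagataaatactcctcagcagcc
The Cxcr6 stretch held a RUNX match in reverse, ACCACA, from base -10 to base -5 before the start. The Cxcl9 stretch held TGTGGT from base -106 to base -101. In Cxcl10 an interferon-stimulated response element lay from base -213 to base -204 and an NF-kB motif from base -159 to base -150. No motif lay in the Cxcr3 stretch shown; its RUNX match, from base -110 to base -105, falls in what GENCODE annotates as the first exon. Among 25 tested members with a promoter entry, 6 (24.0%) held the RUNX motif, against 14.2% of 27025 promoters; the NF-kB motif was in 3 (12.0% against 1.17%), the response element in 2 (8.00% against 3.04%), and the T-box and GAS motifs in 1 each (4.00% against 3.31% and 7.18%). These matches describe letters in a window and were not tested further.

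Of the 31 tested genes, Cxcr3 and Cxcr6 were lower in F2_outcross and 0 were higher (limma, Benjamini-Hochberg adjusted p under 0.05 over all 14390 genes). That is 6.45% of the members called in either direction, against 2.66% of all tested genes; lower calls made up 1.06% of all genes and higher calls 1.60%. At an unadjusted p under 0.05 there were 7 members, 6 of them lower, or 22.6% against a background of 21.1%. Log2 fold changes, F2_outcross minus WT throughout, were negative for 21 members (67.7%) and positive for 10, where 51.1% of all genes were negative. The median was -0.19 over members and -0.01 over all genes. The 4 values of one group lay clear of the 4 of the other for 4 members: Cxcr3 and Ccl27a were lower, 6.45% of members against 5.45% of all genes, and Ackr3 and Cxcl12 were higher, against 6.50% of all genes. In either direction 12.0% of all genes had such groups, so these counts are close to the background.

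**Figure D1:**
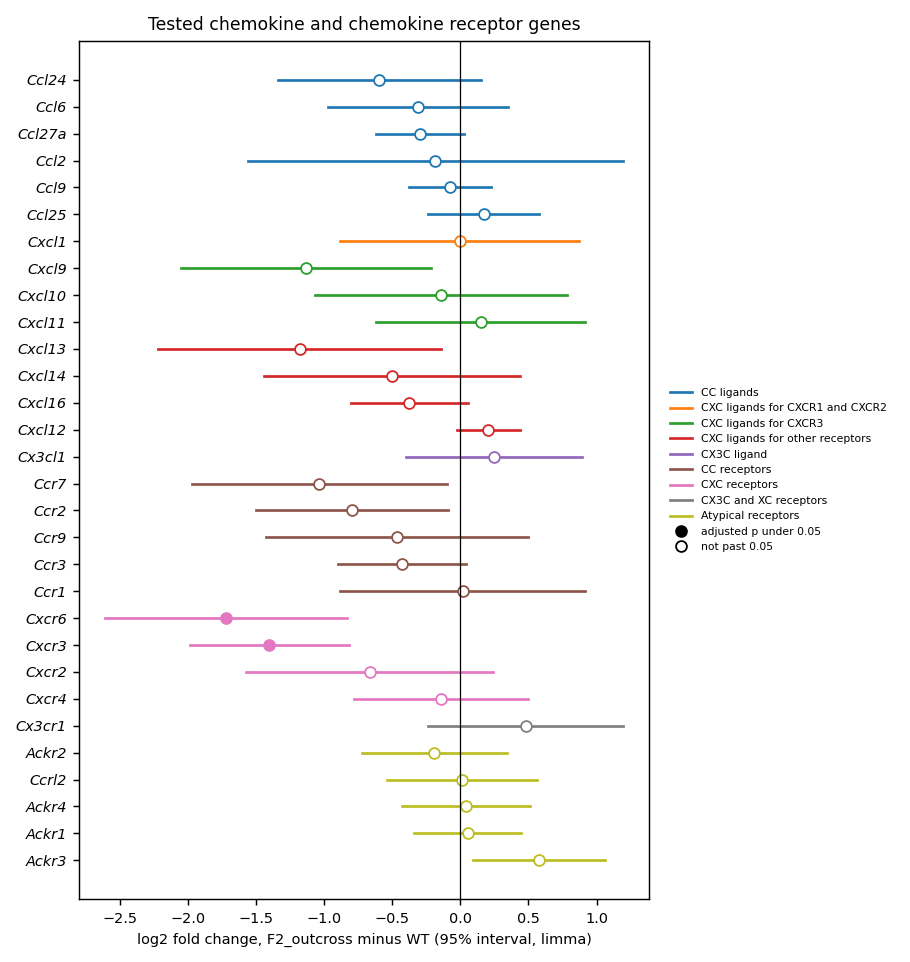
Log2 fold change (F2_outcross minus WT) of 30 of the 31 tested genes on the horizontal axis, with its 95% interval from limma, coloured by role; filled points passed an adjusted p of 0.05. The filled points are Cxcr6 at -1.72 and Cxcr3 at -1.41, and 16 of the 30 intervals drawn lie within a 2-fold change in either direction.

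WT replicates 1 and 2 were often at opposite ends of the WT libraries for these genes. WT replicate 2 was the lowest WT library for 19 of the 31 members, and WT replicate 1 was the highest for 18. Among F2_outcross libraries, replicate 2 was the lowest for 17 members, while replicate 3 was the highest for 11. With WT replicate 2 left out, 5 members were lower and 0 higher, or 16.1% lower against 4.00% of all genes (3.45% of all genes were higher). Those 5 were Cxcr3, Cxcr6, Cxcl9, Cxcl13 and Ccr2. WT replicate 2 was low in these same members, so the larger count without it is not separate support. Leaving out any other library gave no larger count than the 2 of all 8 libraries: 1 member was lower without F2_outcross replicate 3 or 4, and 0 without F2_outcross replicate 1 or 2 or WT replicate 1, 3 or 4.

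**Figure D2:**
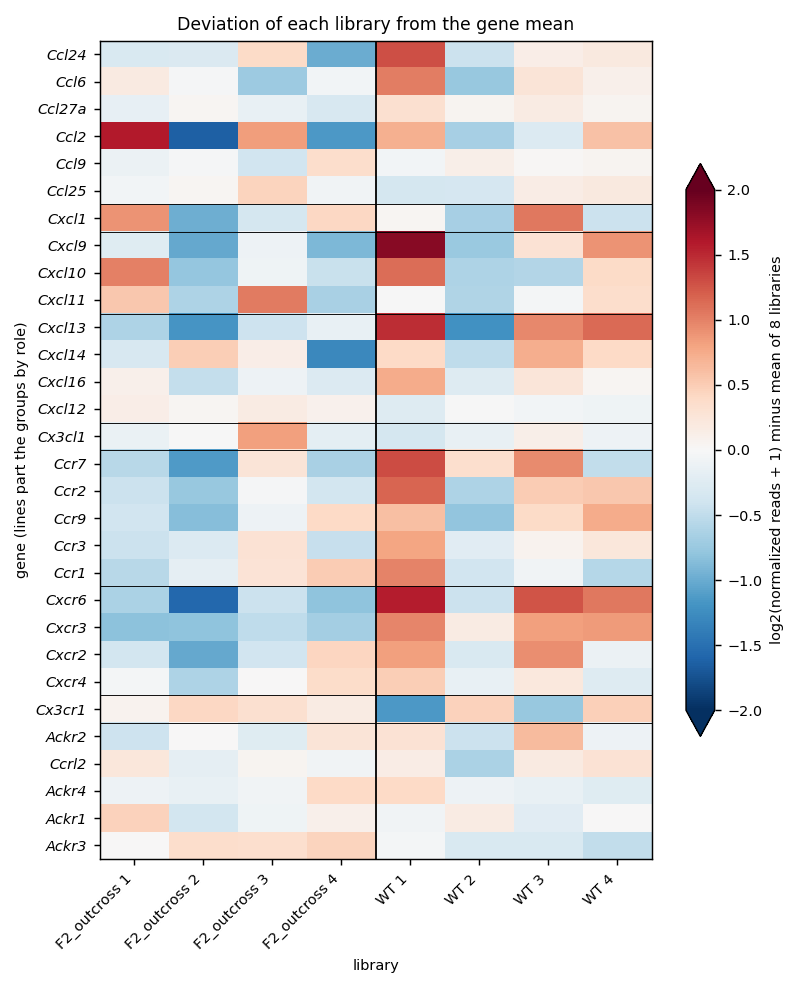
Deviation of log2(normalized reads + 1) from the mean of the 8 libraries, for 30 of the 31 tested genes (rows, grouped by role) in each library (columns, F2_outcross left of WT); red is above and blue below the gene's mean, with the colour scale ending at 2 in each direction. The WT replicate 1 column is mostly red and the WT replicate 2 column mostly blue for ligands and receptors, with Cxcr3 red in all 4 WT libraries.

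Among the CXC receptors, Cxcr3 was the member with the smallest p. CXCR3 is carried by activated T cells and NK cells and binds CXCL9, CXCL10 and CXCL11. The gene lies on the minus strand of chromosome X, 101731535 to 101734269 (GRCm38). Cxcr3 had 12.3, 12.5, 15.6 and 13.6 normalized reads in the F2_outcross libraries, against 45.2, 25.3, 40.7 and 41.3 in the WT libraries. Every F2_outcross library was below every WT library, and WT replicate 2 was the nearest to them. Means were 13.5 ± 1.53 in F2_outcross and 38.1 ± 8.80 in WT (SD, n = 4 each), and the log2 fold change was -1.41 ± 0.27 (moderated SE; 2.65-fold lower; limma adjusted p = 0.0205). The values rest on 13 to 18 reads per F2_outcross library and 25 to 58 per WT library. The direction held when each library was left out in turn, but the adjusted p ran from 0.00901 (without WT replicate 2) to 0.0698 (without WT replicate 1). It was above the threshold in 5 of those 8 fits: without F2_outcross replicate 1 (0.0602) or 2 (0.0550) and without WT replicate 1 (0.0698), 3 (0.0686) or 4 (0.0674).

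Cxcr6 showed the larger difference. CXCR6 is carried by resident T, NKT and NK-like cells of the liver sinusoids and binds the membrane-bound ligand CXCL16. The gene lies on the plus strand of chromosome 9, 123806475 to 123811760. Cxcr6 had 21.1, 10.5, 24.3 and 18.5 normalized reads in the F2_outcross libraries, against 100.5, 24.3, 80.4 and 70.2 in the WT libraries. The groups overlapped at 1 point: F2_outcross replicate 3 was just above WT replicate 2, and the other WT libraries were far higher. Cxcr6 averaged 18.6 ± 5.87 in F2_outcross and 68.8 ± 32.3 in WT, with a log2 fold change of -1.72 ± 0.41 (3.30-fold lower; limma adjusted p = 0.0466). This call was lost in 7 of the 8 fits that left out a library (adjusted p 0.0519 to 0.141) and held without WT replicate 2 (-2.15 ± 0.30; limma adjusted p = 0.00586). It was also lost without a filter on low values (limma adjusted p = 0.0586) and with limma voom on the recovered reads (adjusted p = 0.0701). Fyco1, on the opposite strand, spans Cxcr6 without shared exon bases, and averaged 1662 ± 115 normalized reads in F2_outcross and 1683 ± 181 in WT.

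**Figure D3:**
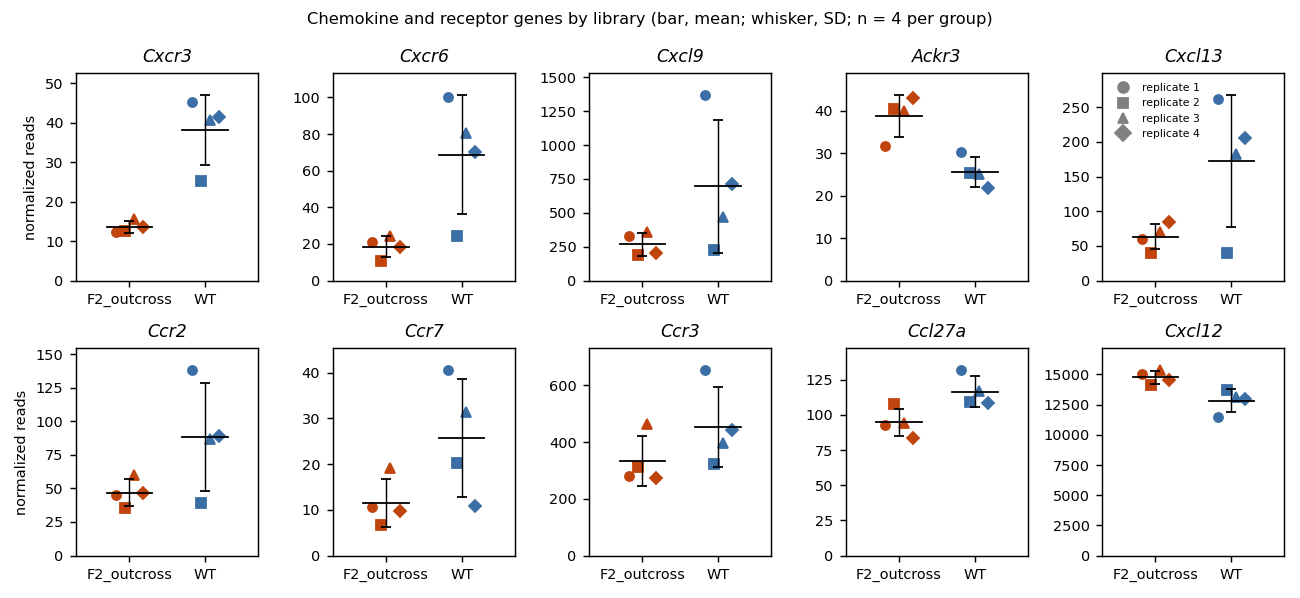
Normalized reads (vertical axes, each starting at 0) in each library for the 10 members with the smallest p; symbols mark replicates, bars the group mean and whiskers the SD (n = 4 per group). Cxcr3, Ccl27a, Ackr3 and Cxcl12 are the panels in which the groups do not overlap, and for Cxcr6, Cxcl9, Cxcl13 and Ccr2 WT replicate 2 lies among or next to the F2_outcross libraries.

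In bulk liver RNA, fewer cells of a type and less RNA per cell cannot be told apart. Markers of the cells known to carry CXCR3 and CXCR6 were also lower in several F2_outcross libraries. T cell markers summed to 216 to 280 normalized reads in F2_outcross and 261 to 675 in WT; all 10 had negative log2 fold changes (median -0.83), and 0 passed the test. Cd3d, a subunit of the T cell receptor complex, averaged 10.3 ± 3.84 in F2_outcross and 35.3 ± 19.4 in WT (limma adjusted p = 0.0693). Markers of NK cells and type 1 innate lymphoid cells summed to 110 to 226 in F2_outcross and 200 to 613 in WT, and 2 of 7 tested genes fell. These were Gzma, a granule protease (-1.42 ± 0.30, limma adjusted p = 0.0304), and Nkg7, a granule membrane protein (-1.10 ± 0.26, limma adjusted p = 0.0438). Over all tested genes 1.06% were called lower and 51.1% had a negative log2 fold change. Eomes, a transcription factor of NK cells, was below the filter, so its groups were not compared. The part of cell numbers in the receptor values was not tested.

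Set against those sums, the receptors gave a measure of reads per 1000 marker reads. It was computed only for Cxcr3 and Cxcr6 because of their values, and is therefore given without a test. Cxcr3 came to 44.2, 57.3, 55.7 and 63.1 reads per 1000 T cell marker reads in F2_outcross, against 66.9, 96.9, 85.7 and 99.6 in WT. Cxcr6 came to 75.7, 48.5, 86.7 and 85.6 per 1000 in F2_outcross, against 148.8, 93.0, 169 and 169 in WT. On this scale the F2_outcross libraries were below all WT libraries for both receptors, which had been picked for being lower. The share of all genes that separate on such a ratio was not computed. Per 1000 NK and ILC1 marker reads the groups overlapped: Cxcr3 averaged 90.0 ± 18.1 in F2_outcross and 111 ± 27.6 in WT, and Cxcr6 averaged 119 ± 26.1 in F2_outcross and 184 ± 62.2 in WT.

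**Figure D4:**
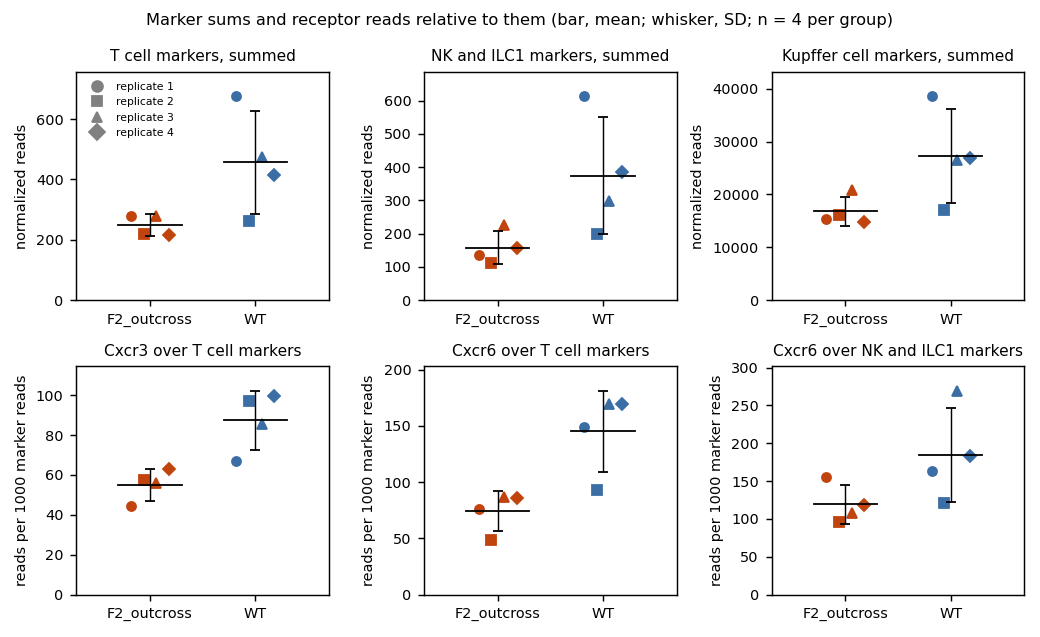
Upper panels show summed normalized reads of T cell, NK and ILC1, and Kupffer cell markers in each library. Lower panels show Cxcr3 per 1000 T cell marker reads, and Cxcr6 per 1000 T cell or NK and ILC1 marker reads. Bars are means and whiskers SDs (n = 4 per group). Cxcr3 per 1000 NK and ILC1 marker reads is not drawn, and its groups overlapped. WT replicate 2 has the lowest marker sums among WT libraries. Relative to T cell markers Cxcr3, picked for its low values, is at 44.2 to 63.1 in F2_outcross and 66.9 to 99.6 in WT.

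The other CXC receptors did not pass the test. Cxcr2, the receptor of neutrophils for CXCL1, had 9.66, 5.75, 9.54 and 17.5 normalized reads in F2_outcross, against 23.4, 10.1, 25.1 and 11.7 in WT. The groups overlapped (log2 fold change -0.67 ± 0.42, limma adjusted p = 0.389). Neutrophil markers summed to 166 to 210 in F2_outcross and 224 to 691 in WT. Of 5 tested neutrophil genes 1 fell, S100a8, a calcium-binding protein (-1.67 ± 0.35, limma adjusted p = 0.0313), where 1.06% of all tested genes were called lower. Ly6g, the defining mouse neutrophil antigen, was at 0 in 7 of the 8 libraries, and the part of neutrophils in the Cxcr2 values was not tested. Cxcr4, the receptor of CXCL12, had 21.9, 14.4, 22.5 and 29.2 normalized reads in F2_outcross, against 31.9, 20.2, 26.1 and 18.7 in WT, and the groups overlapped widely (-0.14 ± 0.29, limma adjusted p = 0.821). Cxcr5, the B cell receptor of CXCL13, and Cxcr1 were below the filter.

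The 3 ligands of CXCR3 were each measured. CXCL9 is made by macrophages and endothelium in answer to interferon gamma. Cxcl9 had 326, 188, 358 and 207 normalized reads in F2_outcross, against 1366, 229, 472 and 715 in WT. WT replicate 2 lay among the F2_outcross values, and WT replicate 1 was far above all others. The log2 fold change was -1.13 ± 0.42 (2.19-fold lower on this scale; limma adjusted p = 0.158) and -1.57 ± 0.33 without WT replicate 2 (limma adjusted p = 0.0229). Without WT replicate 1 it was -0.71 ± 0.34 (limma adjusted p = 0.350), and this call appeared in 1 of the 8 fits that left out a library. Cxcl10 had 173.8, 49.9, 80.6 and 62.4 in F2_outcross, against 187, 55.6, 56.4 and 112 in WT, and in each group 1 library, replicate 1, stood high (-0.14 ± 0.43, limma adjusted p = 0.878). Cxcl11, annotated by GENCODE as a polymorphic pseudogene, had 157, 70.0, 222 and 68.2 in F2_outcross, against 107, 70.7, 105 and 138 in WT. Its log2 fold change was 0.15 ± 0.35 (limma adjusted p = 0.848), and its 95% interval ran from -0.62 to 0.92. The 3 genes lie together on chromosome 5, 92321347 to 92365485. Art3, on the opposite strand, shares 133 exon bases with Cxcl10, and Cxcl11 shares 1582 with the pseudogene Gm2673, so strand settings of the counting could touch both genes.

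Genes known to induce these ligands were counted from a list of 16 interferon receptors, kinases and factors, of which 15 were tested and 0 passed, with 12 negative (median log2 fold change -0.17, against -0.01 over all genes). Irf7 was at 271 ± 40.3 normalized reads in F2_outcross and 457 ± 138 in WT (limma adjusted p = 0.0717). Irf8, a factor of myeloid cells, had a log2 fold change of -0.53 ± 0.21 (limma adjusted p = 0.174). Ifng itself was below the filter: it was at 0 in F2_outcross replicates 1, 2 and 4, and at most 7.79 in WT.

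Cxcl16, the ligand of CXCR6, had 349, 234, 303 and 269 normalized reads in F2_outcross, against 543, 272, 384 and 333 in WT. The groups overlapped, with F2_outcross replicate 1 above WT replicates 2 and 4. Its log2 fold change was -0.37 ± 0.20 (limma adjusted p = 0.299). Zmynd15, on the opposite strand, shares 552 exon bases with it and averaged 62.5 ± 26.3 in F2_outcross and 66.0 ± 22.1 in WT.

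Cxcl13, which draws B cells through CXCR5, had 60.6, 40.3, 69.4 and 83.8 normalized reads in F2_outcross, against 262, 39.4, 183 and 205 in WT. WT replicate 2 had the lowest value of all 8 libraries, while the other WT libraries were above every F2_outcross library. The log2 fold change was -1.18 ± 0.48 (2.27-fold lower on this scale; limma adjusted p = 0.184) and -1.78 ± 0.24 without WT replicate 2 (limma adjusted p = 0.00501). In the other 7 fits that left out a library it lay between -1.33 and -0.88 (limma adjusted p 0.196 to 0.416), with the smallest difference without WT replicate 1. Its receptor gene Cxcr5 had 7.90, 4.79, 3.47 and 11.7 in F2_outcross, against 16.4, 6.06, 13.6 and 8.58 in WT, and was not tested. B and plasma cell markers summed to 216 to 434 in F2_outcross and 454 to 980 in WT. All 9 tested were negative and 2 fell: Ighm, the heavy chain of IgM (-1.11 ± 0.24, limma adjusted p = 0.0333), and Ighd, that of IgD (-1.64 ± 0.37, limma adjusted p = 0.0377). Over all tested genes 51.1% were negative and 1.06% were called lower. The part of B cells in the Cxcl13 and Cxcr5 values was not tested.

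Cxcl12 was the member with the highest level per exon length. It is a constitutive chemokine of vessel walls and stroma, and it binds CXCR4 and the scavenger ACKR3. Cxcl12 had 15036, 14100.1, 15337 and 14531 normalized reads in F2_outcross, against 11456, 13689.8, 13150.4 and 12953 in WT. Every F2_outcross library was above every WT library, by a narrow margin between F2_outcross replicate 2 and WT replicate 2. The log2 fold change was 0.21 ± 0.10 (1.15-fold) and did not pass (limma adjusted p = 0.285).

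Ackr3, which removes CXCL12 and CXCL11 from the surroundings of the cell, was the atypical receptor with the smallest p. It had 31.6, 40.3, 39.9 and 42.9 normalized reads in F2_outcross, against 30.4, 25.3, 25.1 and 21.8 in WT. The groups did not overlap, though F2_outcross replicate 1 and WT replicate 1 were close. Ackr3 averaged 38.7 ± 4.89 in F2_outcross and 25.6 ± 3.52 in WT (log2 fold change 0.58 ± 0.22, limma adjusted p = 0.169). Sinusoidal endothelial markers summed to 14215 to 16136 in F2_outcross and 13992 to 16171 in WT, with 0 of 10 past the test. The list for vascular and lymphatic endothelium summed to 4551 to 7273 in F2_outcross and 2703 to 3789 in WT. Such a sum weighs each gene by its reads, so a few genes can carry it. The 6 tested genes of this list had a median log2 fold change of 0.10, with 1 negative. Its 1 higher gene was Prox1 (0.79 ± 0.17, limma adjusted p = 0.0317), which hepatocytes are also known to express. The part of vessel cells in the Ackr3 and Cxcl12 values was not tested.

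The other 4 atypical receptors did not pass the test. Ackr1, which carries chemokines across venules and red cells, ranged from 113 to 201 normalized reads in F2_outcross and 125 to 164 in WT. Ackr2, a scavenger of inflammatory CC chemokines, ranged from 51.8 to 83.8 in F2_outcross and 51.5 to 108.6 in WT. Ackr4, which clears CCL19, CCL21 and CCL25, ranged from 46.0 to 67.3 in F2_outcross and 42.9 to 67.7 in WT. Ccrl2, which binds chemerin, ranged from 30.7 to 41.3 in F2_outcross and 22.2 to 42.9 in WT. Their log2 fold changes lay between -0.19 (Ackr2) and 0.05 (Ackr1), with limma adjusted p from 0.696 to 0.986. The intervals were narrower than a 2-fold change either way, the widest lower bound being -0.72 for Ackr2. Ackr1 shares 361 exon bases with Cadm3 on the same strand, so their reads may not be separable. Ackr4 shares 479 with Acad11 on the opposite strand, which averaged 13712 ± 2579 in F2_outcross and 11778 ± 979 in WT. Strand settings of the counting could therefore touch the Ackr4 values.

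Of 9 CC receptors, 6 were tested and 0 passed, with 5 negative log2 fold changes (median -0.45). CCR2 is the receptor that inflammatory monocytes use to leave the bone marrow. Ccr2 had 44.8, 35.5, 59.8 and 46.8 normalized reads in F2_outcross, against 138, 39.4, 86.7 and 88.9 in WT. WT replicate 2 lay within the F2_outcross values and the other WT libraries above all of them. The log2 fold change was -0.80 ± 0.32 (limma adjusted p = 0.185) and -1.13 ± 0.24 without WT replicate 2 (limma adjusted p = 0.0226). Without WT replicate 1, the highest library, it was -0.54 ± 0.31 (limma adjusted p = 0.433). Among monocyte markers 0 of 7 tested passed. Their sum, most of it Fn1 (which hepatocytes make), was 50642 to 66683 in F2_outcross and 52435 to 63987 in WT, and Ly6c2, an antigen of inflammatory monocytes, averaged 10.1 ± 5.98 in F2_outcross and 23.5 ± 12.98 in WT (limma adjusted p = 0.181). Ccl2, the main ligand of CCR2, had 71.1, 6.71, 41.6 and 9.75 in F2_outcross, against 38.2, 14.1, 18.8 and 35.1 in WT. It varied more within F2_outcross than between the groups (-0.18 ± 0.63, limma adjusted p = 0.898), and a 2-fold change in either direction lies inside its 95% interval, -1.563 to 1.196.

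CCR7 leads dendritic cells and T cells to lymph. Ccr7 had 10.5, 6.71, 19.1 and 9.75 normalized reads in F2_outcross, against 40.5, 20.2, 31.3 and 10.9 in WT. WT replicate 4 lay within the F2_outcross values, and the other WT libraries were higher than all of them. The log2 fold change was -1.04 ± 0.43 (2.05-fold lower on this scale; limma adjusted p = 0.195). Its ligand gene Ccl19 was below the filter, with 3.90 in its highest library. Of the conventional type 1 dendritic cell list 0 of 5 tested genes passed; Wdfy4 was nearest (-0.71 ± 0.17, limma adjusted p = 0.0520). The list of other dendritic cell markers, which holds Ccr7, had 0 of 6 past the test. Log2 fold changes were negative for 4 of 5 tested genes in the first list (median -0.66) and 5 of 6 in the second (median -0.49). Their sums were 999.98 to 1146 in F2_outcross and 1002 to 1272 in WT for the first list, and 2480 to 3334 in F2_outcross and 2591 to 3266 in WT for the second.

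Ccr3, the eotaxin receptor of eosinophils, had 280.1, 313, 464 and 275 normalized reads in F2_outcross, against 653, 323, 397 and 444 in WT. The groups overlapped through F2_outcross replicate 3 (log2 fold change -0.43 ± 0.22, limma adjusted p = 0.275). Its ligand gene Ccl24, made by macrophages, had 125, 126, 202 and 77.0 in F2_outcross, against 378, 114, 168 and 177 in WT. WT replicate 1 was far above the other libraries (-0.60 ± 0.34, limma adjusted p = 0.343; -0.26 ± 0.28 without it, limma adjusted p = 0.705). The other eotaxin genes, Ccl11 and Ccl26, had at most 0.878 and 2.92 normalized reads in any library. Ccr1 ranged from 7.90 to 17.5 in F2_outcross and 7.80 to 24.9 in WT, and Ccr9, the receptor of CCL25, from 4.79 to 12.7 in F2_outcross and 5.05 to 16.4 in WT. Neither Ccr1 nor Ccr9 passed (limma adjusted p = 0.989 and 0.589). Ccr9 shares 1932 exon bases with a transcript on the opposite strand and 269 with Gm17200 on the same strand.

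The CC ligands spanned a wide range of levels. Ccl27a, which binds CCR10, had 93.1, 107, 94.5 and 83.8 normalized reads in F2_outcross, against 132, 109, 117 and 108 in WT. Every F2_outcross library was below every WT library, F2_outcross replicate 2 only just (log2 fold change -0.30 ± 0.15, 1.23-fold lower; limma adjusted p = 0.277). Mouse chromosome 4 carries near-identical copies of this gene, so its reads may be divided between copies; Ccl27b had 1 read over all libraries, and its receptor gene Ccr10 had at most 1.56 normalized reads. Ccl9, a ligand of CCR1, ranged from 2251 to 3779 in F2_outcross and 2846 to 3212 in WT, and Ccl6, a related ligand in mouse, from 328 to 611 in F2_outcross and 318 to 1096 in WT. Neither passed (limma adjusted p = 0.787 for Ccl9 and 0.601 for Ccl6). Ccl25 ranged from 101 to 146 in F2_outcross and 83.3 to 122 in WT (0.17 ± 0.19, limma adjusted p = 0.649). Ccl25 shares 204 exon bases with Elavl1 on the opposite strand, which averaged 1210 ± 83.5 in F2_outcross and 1095 ± 26.9 in WT. Strand settings of the counting could therefore touch the Ccl25 values.

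Cxcl1, a neutrophil attractant, ranged from 189.9 to 694 normalized reads in F2_outcross and 235 to 772 in WT, and the fitted difference was near 0 with a wide interval (-0.88 to 0.87 on the log2 scale). Cxcl14 ranged from 4.87 to 19.2 in F2_outcross and 9.09 to 23.0 in WT (-0.50 ± 0.43, limma adjusted p = 0.545). Cx3cl1, a membrane-bound ligand also called fractalkine, ranged from 17.5 to 36.4 in F2_outcross and 15.6 to 21.9 in WT (0.25 ± 0.30, limma adjusted p = 0.679). Its receptor gene Cx3cr1, a gene of monocytes and capsular macrophages, had 91.3, 116, 109 and 97.5 in F2_outcross, against 38.9, 120.2, 51.2 and 121.7 in WT. The WT libraries fell into a low and a high pair with every F2_outcross library between them (0.48 ± 0.33, limma adjusted p = 0.436).

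Kupffer cells, the resident macrophages, are known sources of several of these ligands. Their 10 markers summed to 14734 to 20863 normalized reads in F2_outcross and 17028 to 38533 in WT. All 10 had negative log2 fold changes (median -0.59), where 51.1% of all tested genes were negative, and 0 passed. Cd5l, a secreted macrophage protein, was at 3421 ± 725 in F2_outcross and 6438 ± 2319.6 in WT (limma adjusted p = 0.0639). None of the 10 was at 0. The part of Kupffer cells in the Cxcl9, Cxcl13, Cxcl16 and Ccl24 values was not tested. For stellate cell and fibroblast markers, 0 of 10 passed, and the sums were 14610 to 16349 in F2_outcross and 13828 to 17110 in WT. Among 4 tested cholangiocyte markers Spp1, a secreted phosphoprotein, was higher (1.08 ± 0.21, limma adjusted p = 0.0247). Of those 4, 0 had a negative log2 fold change (median 0.49). The 7 listed cholangiocyte markers summed to 406 to 605 in F2_outcross and 247 to 344 in WT. Red cell genes (5 tested, 0 passed) summed to 6448 to 16989 in F2_outcross and 9841 to 24225 in WT. All 5 had negative log2 fold changes (median -0.90). Platelet genes (2 tested, 0 passed) summed to 98.8 to 132 in F2_outcross and 105 to 158 in WT, with the 2 negative (median -0.18).

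Between genes, levels were compared as normalized reads per kb of exon. Cxcl12 stood first, at 1804 ± 66.9 per kb in F2_outcross and 1567 ± 117 in WT, and Ccl9 second, at 958 ± 210 in F2_outcross and 995 ± 49.97 in WT; their libraries did not overlap with each other or with those of any other member that has a position. Ccl6 came next by its WT mean, at 277 ± 67.0 per kb in F2_outcross and 368 ± 180 in WT. After it came Cxcl9 at 89.4 ± 28.1 in F2_outcross and 231 ± 162 in WT and Cxcl1 at 223 ± 119 in F2_outcross and 223 ± 130 in WT, and the order among Ccl6, Cxcl9 and Cxcl1 was within their spread. The highest receptor by WT mean was Ccr3, at 102 ± 27.2 per kb in F2_outcross and 139 ± 43.2 in WT, followed by Ackr1 at 108 ± 26.5 in F2_outcross and 102 ± 11.4 in WT. Cxcr6 was at 9.63 ± 3.04 in F2_outcross and 35.6 ± 16.7 in WT, and Cxcr3 at 7.80 ± 0.88 in F2_outcross and 22.0 ± 5.08 in WT.

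**Figure D5:**
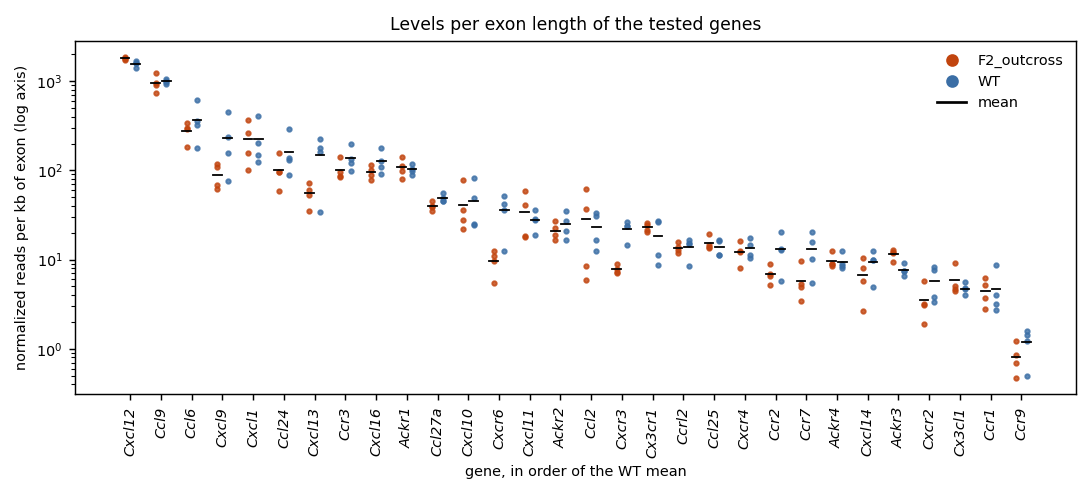
Normalized reads per kb of merged exon (vertical log axis) for 30 of the 31 tested genes, in order of the WT mean; points are libraries and short bars group means, F2_outcross left of WT. Levels run over 3 powers of 10, with Cxcl12 highest at 1804 in F2_outcross and 1567 in WT, and the Cxcr3 points separate by group.

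The genes lie in clusters. Chromosomes 9 and 11 held 13 members each and chromosome 5 held 9, of 51 with a single position in GENCODE. A stretch of chromosome 9, 123678439 to 124113557, held 6 receptor genes: Ccr9, Cxcr6, Xcr1, Ccr1, Ccr3 and Ccr2. Of the 5 tested there, 4 were negative, yet neighbours differed in size, with Cxcr6 at -1.72, Ccr9 at -0.47 and Ccr1 at 0.02.

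The filter left out 21 members. None of the 52 was at 0 in every library, and 7 of the 21 had a library at 10 or more. Just inside the filter was Ccr9, with 4 libraries at 10 or more, 1 of them F2_outcross and 3 WT. Just outside was Cxcr5, with 3 such libraries, followed by Ccl28 and Xcr1 with 2 each. Ccl28, a mucosal ligand of CCR10, peaked at 13.6 normalized reads, and Xcr1, a receptor of type 1 dendritic cells, at 12.5. Ccl22, Ccl8, Cxcl2 and Ccr6 each had 1 library at 10 or more (highest 17.9, 14.0, 10.9 and 10.4). Of these, Ccl22 and Ccl8 peaked in WT replicate 1, Ccr6 in WT replicate 3 and Cxcl2 in WT replicate 4. The rest stayed under 10: Ccl4 reached 8.57, Cxcl5 7.90, Ccr4 7.31, Ccl3 5.85, Ccl7 5.27, Cxcr1 4.34, Ccl19 3.90, Ccl17 3.13, Ccl26 2.92, Ccl12 2.34, Ccl1 1.76, Ccr10 1.56, Ccl27b 1.01 and Ccl11 0.878. The leukocyte-made ligands Ccl17, Ccl22, Ccl3 and Ccl4 rest on 1 to 41 reads per group and were not tested.

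Other genes of the pathway were taken from lists of G protein and kinase signalling, receptor shut-off, ligand processing, adhesion and inflammatory induction. Of 25 signalling genes 1 fell and 0 rose, with 22 negative (median -0.28, against -0.01 over all genes). Over all tested genes 1.06% were called lower and 51.1% were negative. The gene that fell was Vav1, an activator of Rac in blood cells, at 117 ± 17.1 normalized reads in F2_outcross and 212 ± 52.4 in WT (-0.84 ± 0.19, limma adjusted p = 0.0375). Dock2, a Rac activator in lymphocyte migration, had a log2 fold change of -0.77 ± 0.19 (limma adjusted p = 0.0522), and Rac2, the Rac of blood cells, one of -0.89 ± 0.25 (limma adjusted p = 0.0802). Among 17 tested adhesion genes 1 fell: Itga4, the alpha4 chain of the integrins that bind VCAM1, at 60.1 ± 3.32 in F2_outcross and 144 ± 49.9 in WT (-1.17 ± 0.25, limma adjusted p = 0.0315). Its partner chain Itgb7 had a log2 fold change of -1.12 ± 0.29 (limma adjusted p = 0.0622). The summed T cell markers averaged 248 normalized reads in F2_outcross and 456 in WT, those of B and plasma cells 294 in F2_outcross and 661 in WT, and those of neutrophils 194 in F2_outcross and 457 in WT. The part of these cells in the signalling and adhesion values was not tested.

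Of 12 tested genes of receptor desensitisation 0 passed, with 10 negative (median -0.29); Rgs1, which shortens G protein signals in lymphocytes, was nearest (-1.12 ± 0.35, limma adjusted p = 0.0975). Of 17 tested genes that cut, sulfate or display chemokines 0 passed (median 0.06). Hs6st1, which sulfates heparan chains, had a log2 fold change of 0.34 ± 0.12 (limma adjusted p = 0.133), and Ctss, a protease of antigen-presenting cells, one of -0.71 ± 0.26 (limma adjusted p = 0.148). Of 20 tested inflammatory inducers 0 passed, with 7 negative (median 0.08). Tnf had a log2 fold change of -1.79 ± 0.52 (limma adjusted p = 0.0831) at 5.47 ± 3.95 normalized reads in F2_outcross and 19.8 ± 9.81 in WT. Il1b had one of -0.98 ± 0.30 (limma adjusted p = 0.0963). Il6 was below the filter, so its groups were not compared.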

How the data were processed

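Liver RNA of 4 F2_outcross and 4 WT mice was isolated with the Qiagen RNeasy Lipid Tissue kit and made into strand-specific libraries, per the labels' protocols. Build GRCm38 and the tools cutadapt, HISAT2 and DESeq2 are named in the submitters' processing notes; the counter, strand setting and gene models were not given in the sources used here. The authors deposited log2 values of normalized reads plus 0.1: after subtraction, 100% of values were whole multiples of 1 step per library within 0.001, which gave the reads. Lines without a symbol (395 of 25069; 0.611% to 1.22% of reads) were left out. Groups came from the genotype labels.

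Values were tested as log2(normalized reads + 1), so folds of low genes are understated, with limma 3.58.1 in R 4.3.3 (trend, two-sided, Benjamini-Hochberg over 14390 genes at 10 or more normalized reads in 4 or more libraries, threshold 0.05). Errors are SDs for levels and moderated SEs for log2 fold changes, n = 4 per group. Recovery was tested on simulated data. No 2 libraries were copies (chi-square per degree of freedom 40.0 or more). Floors and read counts cover counting error only. Positions, exon lengths and overlaps are from GENCODE M21 and promoters from RefSeq, which held 39 of the 52 members. Members and lists were chosen with earlier results of these data known. Of the 31 tested members 30 are named, and single-gene results of 1 member and of a few list genes are not reported here; values per library are given for members past the threshold, with separate groups or among the 10 smallest p, and their ligand or receptor partners, and up to 3 genes by p from each list. Overlapping genes were looked up after values were seen. Alternatives were pseudocounts of 0.5 and 5, no filter, a mean of at least 50, TMM, upper quartile and quantile scaling, robust moderation, limma voom on the recovered reads, a threshold of 0.10 and each library left out.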

Additional observations from a re-analysis of the deposited data

Results flagged for a closer look

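Of 62 groups of 4 values examined, 2 held a library far from the others by Dixon's criterion, which chance meets in about 1 group in 20. Ackr4 was at 67.3 normalized reads in F2_outcross replicate 4, against 46.0 to 48.6 in the other F2_outcross libraries. Cx3cl1 was at 36.4 in F2_outcross replicate 3, against 17.5 to 20.1 in the others of its group.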

How the results depend on the processing

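Cxcr3 kept its direction under all 17 alternatives that could be computed and its call under 12, and Cxcr6 kept its direction under 17 and its call under 8; neither reaches a mean of 50, so that filter left them out. The count of chemokine and receptor genes called lower was 1 with no filter, 0 with a mean of at least 50, 1 with limma voom on the recovered reads and 0 to 5 on leaving out a library; none was higher in any setting. Over all genes, leaving out a library gave 71 to 497 higher and 34 to 576 lower, and a threshold of 0.10 gave 543 higher and 530 lower. Upper quartile scaling gave 198 higher and 208 lower genes, against 230 higher and 153 lower as reported. Near-zero changes turned sign: Ccr1 to -0.019 and Ccrl2 to -0.025 with upper quartile scaling, Cxcl1 to 0.0029 with quantile normalization, and Ccr1 to -0.0033, Ccrl2 to -0.0023 and Cxcl1 to 0.015 with limma voom. On leaving out a library the log2 fold change ran from -0.0907 to 0.18 for Ackr1, -0.0834 to 0.18 for Ackr4, -0.74 to 0.33 for Ccl2, -0.21 to 0.0366 for Ccl9, -0.17 to 0.35 for Ccr1, -0.20 to 0.11 for Ccrl2, -0.30 to 0.34 for Cxcl1, -0.51 to 0.20 for Cxcl10, -0.17 to 0.39 for Cxcl11 and -0.29 to 0.0379 for Cxcr4. The cause was not tested. No paired analysis was possible because the labels give no replicate numbers and the numbers used here only name the samples.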
